A study of Caenorhabditis elegans with 11 samples.

Results

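The lysozyme genes examined here are the 8 protist-type genes lys-1, lys-2, lys-3, lys-4, lys-5, lys-7, lys-8 and lys-10 and the 2 invertebrate-type genes ilys-2 and ilys-3 of Caenorhabditis elegans. They were taken by gene name, with earlier results of these data known. They are 10 of the 16 lysozyme genes named among the 47084 genes listed for each library. Transcripts of whole worms on day 1 of adulthood, about 1000 per library, grown at 20 °C on the E. coli strain OP50, were sequenced as counts per gene. The 2KR line (3 libraries) carried the deletion daf-16(mu86) and the integrated transgene iqIs85, which expresses GFP-tagged DAF-16 from the daf-16 promoter with 2 lysines replaced by arginine (written K248 + 253R in the genotype), together with the plasmid pRF4, which makes worms roll through a mutant rol-6. The WT line (3 libraries) carried the same deletion, the same plasmid and the transgene iqIs79, with unaltered GFP-tagged DAF-16 from the same promoter. N2, the laboratory wild type (2 libraries), had neither deletion nor transgene nor plasmid. Each transgene was sampled in 1 line, and what the substitutions do cannot be told apart from what else differs between those lines. In the comparisons with N2, the deletion, the tagged transgene and the roller plasmid likewise cannot be told apart.

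Lysozymes cut the peptidoglycan of bacterial cell walls. C. elegans lives on bacteria, and its lysozymes, many of them made in the intestine, serve both digestion and defence against infection. DAF-16, the FOXO transcription factor restrained by insulin signalling, is known to activate some of them, lys-7 and lys-8 being the usual examples, while the p38 kinase PMK-1 and the TGF-beta ligand DBL-1 also act on lysozyme genes. In libraries of whole worms, fewer cells of a type and less RNA per cell cannot be told apart.

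Total counts ran from 21947014 to 30810301 over the 8 libraries. The rol-6 row followed the labels, with 3745 to 4469 counts in 2KR, 1569 to 1951 in WT and 2 and 3 in N2. The daf-16 transcript, which counts over the whole gene cannot separate into transgene and remaining endogenous RNA, was at 214, 289 and 234 CPM in 2KR, at 400, 452 and 400 CPM in WT and at 160 and 145 CPM in N2. CPM is the count per 1000000 counts of the library after TMM scaling, which adjusts library totals for differences in composition. Markers of the gut were present in every library: the summed level of 10 intestine genes was 45480 to 47270 CPM in 2KR, 41120 to 44470 CPM in WT and 45450 to 47970 CPM in N2. The sum is weighted to the most abundant of these genes and does not stand for each of them. In WT it lay below both N2 libraries, while 6 of the 10 genes had a positive log2 fold change over N2 and 4 a negative one.

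The genes lie in 3 runs of neighbours and at 3 single places of the WBcel235 assembly. On chromosome V, lys-1 (10277904 to 10279056, plus strand) is followed by lys-2 (10280307 to 10281474) and lys-3 (10282100 to 10283544), both on the minus strand, with 1250 and 625 bases between them. On chromosome IV, lys-4 (11621429 to 11623174) and lys-5 (11624252 to 11625582) stand on the minus strand beside lys-6, a lysozyme gene outside the set of 10, with 1077 and 1327 bases between neighbours. Also on chromosome IV, ilys-3 (2464456 to 2465443) and ilys-2 (2467678 to 2468879) stand on the plus strand 2234 bases apart, followed by ilys-1. Alone are lys-7 (chromosome V, 3481432 to 3482600, minus strand), lys-8 (chromosome II, 5586178 to 5587651, plus strand) and lys-10 (chromosome IV, 8332826 to 8333518, plus strand, a single exon). The annotated proteins are of 2 sizes, 279 to 301 residues for lys-1, lys-2, lys-3, lys-7 and lys-8 and 214 to 230 residues for lys-4, lys-5 and lys-10, while ilys-2 and ilys-3 each encode 139 residues. The sources used here do not give how reads that fit more than 1 copy were counted, and values of genes in the same run are uncertain to the extent that their sequences are shared.

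Of the 10 genes, 5 were abundant and 5 were near the limit of counting. Per kilobase of exon, lys-1, which rises in infection with Serratia marcescens, was the highest in every strain, at 242 ± 22.98 CPM per kilobase in 2KR, 250 ± 27.9 in WT and 263 ± 11.8 in N2 (SD, n = 3, 3 and 2). In 2KR and in WT the next in order were lys-7, lys-8, lys-2 and lys-4, and the libraries of each of these genes stood clear of those of the next. In N2 the order differed at 1 place: lys-8 stood second at 132 ± 4.50 CPM per kilobase (SD, n = 2), and lys-7 at 88.5 ± 3.85 overlapped lys-2 at 84.6 ± 3.52. The remaining members, lys-3, lys-5, lys-10, ilys-2 and ilys-3, were below 1 CPM per kilobase on average in 2KR and in WT, where each overlapped its neighbour in the order of the members. In N2 ilys-2 and ilys-3 stood above lys-3, lys-5 and lys-10, at 2.96 and 2.43 CPM per kilobase. A lysozyme gene outside the set, ilys-5 on chromosome X, was above each member, at 402 ± 55.4 CPM per kilobase in 2KR, 385 ± 17.8 in WT and 326 ± 8.39 in N2.

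**Figure D1:**
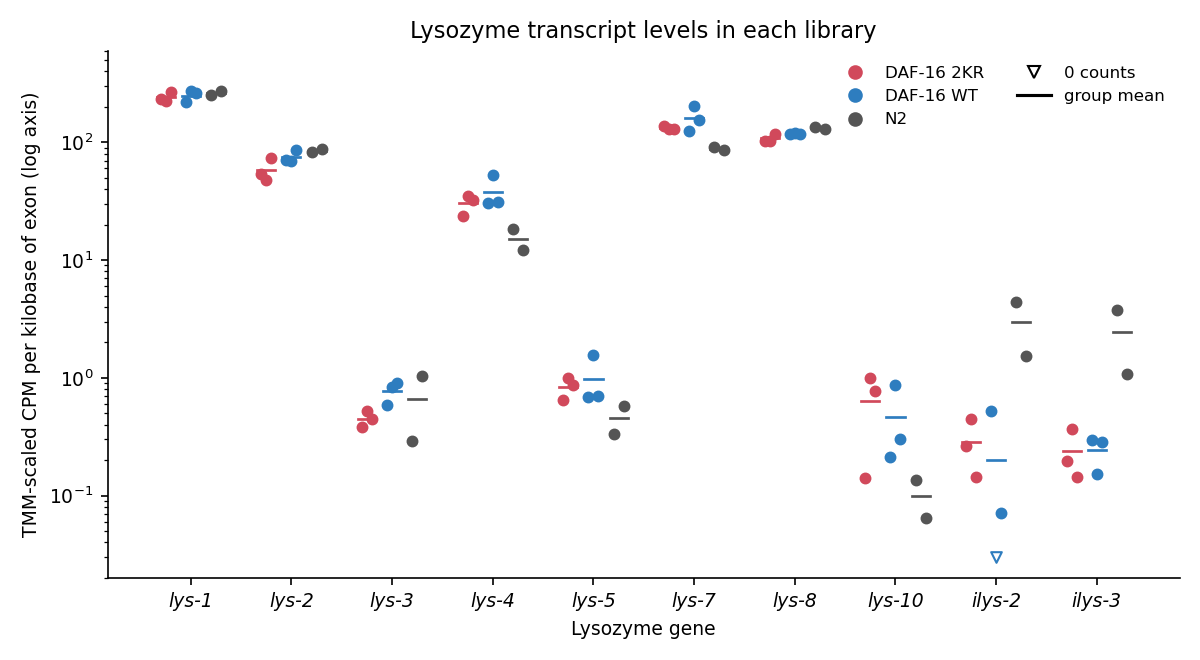
Level of each of the 10 lysozyme genes in each library, as TMM-scaled CPM per kilobase of exon on a log axis. Points are libraries of 2KR, WT and N2, short lines are group means, and the open triangle at the bottom marks the WT library with 0 ilys-2 counts, drawn at an arbitrary height. lys-1, lys-2, lys-4, lys-7 and lys-8 sit above 10 CPM per kilobase, and for ilys-2 and ilys-3 both N2 libraries stand above all 6 libraries of the transgenic lines.

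Against N2, the WT line had higher lys-7 and lys-4. For lys-7, whose product is known in defence against several pathogens, the fold was 1.82, and for lys-4 it was 2.51. The 2KR line had lower lys-8, by a fold of 1.22. The scarce neighbours ilys-2 and ilys-3 were lower than N2 in both lines, but they were tested only because N2 is high: no 2KR or WT library reached the count filter of 0.366 CPM for either gene, and both N2 libraries did. Of the 10 members 4 passed in WT against N2, 2 higher and 2 lower, where 4.07% of all 14361 genes tested passed, 1.86% higher and 2.21% lower (edgeR quasi-likelihood test, Benjamini-Hochberg adjusted p under 0.05). In 2KR against N2 3 members passed, all lower, where 7.76% of genes passed, 3.76% higher and 4% lower. These counts include ilys-2 and ilys-3, which the filter let in through N2. Of the other 8 members 2 passed in WT against N2 and 1 in 2KR against N2. The libraries of the groups did not overlap for 7 members in WT against N2 and for 8 in 2KR against N2, which held for 39.6% and 43.8% of genes. Among them are ilys-2, ilys-3 and lys-10, which the filter let in through the groups where they are high. For lys-10 in 2KR against N2 the nearest libraries were at 0.0980 and 0.0935 CPM. The signs and medians that follow include these genes as well. A log2 fold change above 0 was found for 5 and 4 of the 10 members, and for 51.6% and 51.1% of genes. The median log2 fold change of the members was 0.07 in WT against N2 and -0.20 in 2KR against N2, beside 0.007 over all genes tested in both. Both comparisons use the same 2 N2 libraries, so their values are given side by side and the shared directions are not counted as repeats of each other.

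ilys-2 and ilys-3 were close to the limit of counting in both lines. ilys-3, known for lysozyme activity against Gram-positive bacteria and for a part in breaking up ingested bacteria, had 3, 5 and 2 counts in 2KR, 4, 2 and 4 counts in WT and 40 and 12 counts in N2. Every library of the lines was below both N2 libraries, and the N2 libraries stood far from each other, at 1.87 and 0.535 CPM. The log2 fold change of ilys-3 was -3.31 ± 0.60 SE in 2KR against N2 (edgeR adjusted p = 0.0108) and -3.25 ± 0.60 SE in WT against N2 (edgeR adjusted p = 0.0155). From the summed counts, the ratio to N2 was 0.0978 in 2KR (95% exact interval 0.0443 to 0.195) and 0.102 in WT (0.0464 to 0.204), intervals that cover counting error only.

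Its neighbour ilys-2 had 4, 6 and 2 counts in 2KR, 7, 0 and 1 counts in WT and 46 and 17 counts in N2. Here too the groups did not overlap with N2, and the first N2 library held the larger count. The log2 fold change of ilys-2 was -3.33 ± 0.71 SE in 2KR against N2 (edgeR adjusted p = 0.0222) and -3.83 ± 0.77 SE in WT against N2 (edgeR adjusted p = 0.0228). The summed counts gave a ratio to N2 of 0.0969 in 2KR (95% exact interval 0.0476 to 0.181) and 0.0676 in WT (0.0280 to 0.142). Since both genes passed the filter on low counts through N2 alone, a difference was built into their being tested, and the folds and p-values of the pair are to be read with that limit. All 23959 genes with a count were also tested, which does not select on N2. The log2 fold change of ilys-3 was then -3.29 in 2KR and -3.24 in WT (edgeR adjusted p = 3.23e-04 and 5.47e-04). That of ilys-2 was -3.31 and -3.82 (edgeR adjusted p = 6.87e-04 and 4.25e-04). These values rest on the same counts. In that fit the edgeR adjusted p of lys-7 in WT against N2 also fell, from 0.0151 to 5.24e-05. The smaller p-values are thus not further support for the pair.

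Without N2 replicate 1 the calls of both genes were lost. The log2 fold change of ilys-3 was then -2.15 in 2KR and -2.10 in WT (edgeR adjusted p = 0.175 and 0.256), and that of ilys-2 was -2.40 and -2.90 (0.276 and 0.304). A comparison with 1 N2 library assumes that it varies like the libraries of the other groups. Without N2 replicate 2 the log2 fold changes were -3.95 in 2KR and -3.89 in WT for ilys-3 and -3.90 and -4.40 for ilys-2, all called. In WT against N2 both calls were also lost without WT replicate 2 (edgeR adjusted p = 0.0517 for ilys-3 and 0.0507 for ilys-2) or WT replicate 3 (0.0512 and 0.0774), and ilys-2 had a log2 fold change of -5.99 without WT replicate 1. In 2KR against N2 the ilys-2 call was lost without 2KR replicate 1 (0.0561) or 2KR replicate 3 (0.0739), and its log2 fold change was -3.77 without 2KR replicate 2.

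Markers were also taken for other tissues in which ilys-3 is known to be active. The summed level of 9 pharynx genes was 42.3 to 91.5 CPM in 2KR, 41.8 to 77.6 CPM in WT and 29.3 and 43.2 CPM in N2, and of the 7 that were tested 5 had a positive and 2 a negative log2 fold change in each line. The 3 coelomocyte genes, from scavenger cells of the body cavity, summed to 8.30 to 11.7 CPM in 2KR, 8.07 to 9.97 CPM in WT and 6.31 and 8.34 CPM in N2. No pharynx or coelomocyte gene passed with edgeR or DESeq2 in either comparison. At an unadjusted edgeR p under 0.05 were 6 pharynx genes in 2KR and 4 in WT, and 1 coelomocyte gene in 2KR. Of all 14361 genes tested, 3588 had such a p in 2KR against N2 and 2750 in WT against N2. The part of these tissues in the ilys-3 values was not tested.

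Among the protist-type genes, lys-7 and lys-4 were higher in the lines than in N2. lys-7 was at 124, 117 and 118 CPM in 2KR, at 113, 184 and 139 CPM in WT and at 82.3 and 77.4 CPM in N2. All 6 libraries of the lines were above both N2 libraries, and the WT libraries varied more than the others. The WT line gave a log2 fold change over N2 of 0.87 ± 0.16 SE (edgeR adjusted p = 0.0151). The 2KR line gave 0.58 ± 0.16 SE, which did not pass (edgeR adjusted p = 0.0520), although it passed with DESeq2 (adjusted p = 0.00133) and when 2KR and N2 were fitted alone (edgeR adjusted p = 7.13e-04). The call in WT was lost without N2 replicate 1 (edgeR adjusted p = 0.151) or N2 replicate 2 (0.138).

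lys-4 was at 18.6, 27.7 and 25.5 CPM in 2KR, at 24.2, 41.3 and 24.7 CPM in WT and at 14.4 and 9.54 CPM in N2. Again no library of the lines reached down to N2. In WT against N2 the value was 1.33 ± 0.28 SE on the log2 scale (edgeR adjusted p = 0.0268). In 2KR against N2 it was 1.00 ± 0.27 SE, which did not pass (edgeR adjusted p = 0.0539) but did with 2KR and N2 fitted alone (0.0209) and without 2KR replicate 1 (0.0421). It did not pass with DESeq2 (adjusted p = 0.0555), nor without 2KR replicate 2 (edgeR adjusted p = 0.121) or 2KR replicate 3 (0.125). The call in WT was lost without N2 replicate 1 (edgeR adjusted p = 0.105) or N2 replicate 2 (0.218). Its neighbours on the same strand had the same sign of difference in both lines, and neither passed: lys-5 had log2 fold changes of 0.86 ± 0.51 SE in 2KR and 1.09 ± 0.50 SE in WT, and lys-6 of 0.36 ± 0.30 SE in 2KR and 0.61 ± 0.30 SE in WT. lys-5 rested on 14 to 19 counts per library in 2KR, 13 to 29 in WT and 5 and 9 in N2.

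lys-8, another gene known to respond to DAF-16 and to DBL-1, went the other way in 2KR. It was at 99.4, 99.6 and 115 CPM in 2KR, at 114, 117 and 115 CPM in WT and at 131 and 125 CPM in N2. N2 lay above all 6 libraries of the lines. The log2 fold change was -0.29 ± 0.07 SE in 2KR against N2 (edgeR adjusted p = 0.0314) and -0.16 ± 0.07 SE in WT against N2, which did not pass (edgeR adjusted p = 0.253). The 2KR call was lost with the 2 groups fitted alone (edgeR adjusted p = 0.0572) and without N2 replicate 1 (0.295), N2 replicate 2 (0.127), 2KR replicate 1 (0.0889) or 2KR replicate 2 (0.0926).

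The most abundant member, lys-1, did not differ detectably from N2 in either line. It was at 226, 214 and 257 CPM in 2KR, at 209, 260 and 250 CPM in WT and at 244 and 260 CPM in N2, groups that overlapped. The log2 fold change was -0.12 in 2KR (95% interval -0.34 to 0.10) and -0.07 in WT (-0.29 to 0.15). In 2KR, lys-2 stood at 50.2, 44.7 and 68.4 CPM and in WT at 65.4, 64.3 and 80.1 CPM, against 76.4 and 81.0 CPM in N2. Its log2 fold change of -0.53 ± 0.16 SE in 2KR against N2 did not pass (edgeR adjusted p = 0.0670) but passed with DESeq2 (adjusted p = 0.00813), with every gene tested regardless of count (edgeR adjusted p = 0.00990) and without 2KR replicate 3 (0.0110). It did not pass with 2KR and N2 fitted alone (edgeR adjusted p = 0.0651), nor without 2KR replicate 1 (0.145) or 2KR replicate 2 (0.145). In WT against N2 it was -0.17 ± 0.16 SE (edgeR adjusted p = 0.601).

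The scarce protist-type genes lys-3 and lys-10 gave wide intervals. lys-3 had 13, 16 and 14 counts in 2KR, 18, 25 and 29 in WT and 7 and 26 in N2, and in CPM the N2 libraries, at 0.327 and 1.16, lay on either side of all 6 libraries of the lines. lys-10 had 3, 19 and 15 counts in 2KR, 4, 16 and 6 in WT and 2 and 1 in N2. Every library of the lines exceeded N2, and the range within each line was wide. Its summed counts gave a ratio to N2 of 6.27 in 2KR (95% exact interval 1.99 to 31.8) and 4.61 in WT (1.41 to 23.8), and the edgeR adjusted p was 0.171 in 2KR and 0.344 in WT. lys-10 passed the filter through 2KR and WT libraries alone, with no N2 library over its limit, so it too was tested through the groups where it is high.

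**Figure D2:**
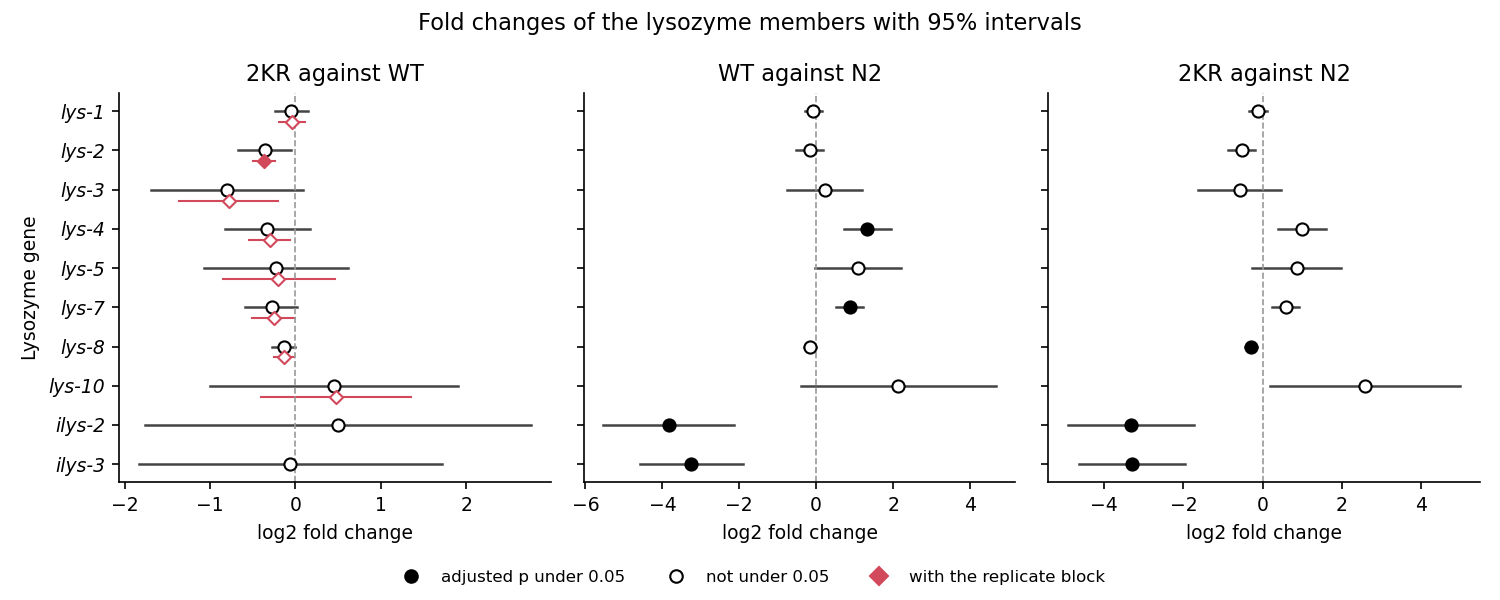
Log2 fold changes of the 10 lysozyme genes between 2KR and WT (left), between WT and N2, and between 2KR and N2, with 95% intervals from the fit. Circles are from the edgeR fit of 8 libraries, filled where the adjusted p was under 0.05, and diamonds in the left panel are from the fit of 2KR and WT with the replicate number as a block, which did not include ilys-2 and ilys-3. ilys-2 and ilys-3 lie between -3.83 and -3.25 in both comparisons with N2, and in the left panel the lys-2 diamond is the filled one, at -0.37.

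Between the transgenic lines, lys-2 was the lysozyme gene that passed the test, and it did so when libraries were matched by replicate number. lys-2, whose expression is known to need the PMK-1 pathway, was 1.29-fold lower in 2KR than in WT. For lys-1, lys-4, lys-7 and lys-8 the matched folds were 1.03 to 1.23 and did not pass. Libraries of 2KR and WT with the same replicate number deviated together from their group means, so the number was taken as a pairing and the fit with it as a block stands beside the fit without it. With the block, lys-2 had a log2 fold change of -0.37 ± 0.06 SE (edgeR adjusted p = 0.0149) and was the only 1 of the 8 members tested in that fit that passed, where 2.08% of 13740 genes did. Without the block none of the 10 members passed, where 0.244% of 14361 genes did. An unadjusted edgeR p under 0.05 was found for 1 member and for 945 of all genes tested. DESeq2 called none of the members and 95 genes in all.

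In pairs, lys-2 was at 50.2 CPM in 2KR against 65.4 CPM in WT in replicate 1, at 44.7 against 64.3 CPM in replicate 2, and at 68.4 against 80.1 CPM in replicate 3. The ratio of 2KR to WT was 0.768, 0.695 and 0.854, below 1 in each pair, while the groups as wholes overlapped because both lines were high in replicate 3. When the number was ignored, lys-2 gave -0.36 ± 0.14 SE in the fit of 8 libraries (edgeR adjusted p = 0.639). With 2KR and WT fitted alone and no block it gave -0.35 ± 0.16 SE (edgeR adjusted p = 0.864). In fits of 4 libraries with the block, chosen after seeing the data, the log2 fold change was -0.36 without pair 1 (edgeR adjusted p = 0.0408), -0.30 without pair 2 (5.70e-05) and -0.45 without pair 3 (0.0221). These fits differed in how many genes they called, 140 (1.01%), 1104 (8.02%) and 80 (0.578%) without pairs 1, 2 and 3.

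lys-3, which lies next to lys-2 on the same strand, was the other member below WT in all 3 pairs, with ratios of 0.640, 0.624 and 0.488. Its counts were few, the 2KR libraries did not overlap with WT as also held for 10.2% of genes tested, and neither fit passed it (log2 fold change -0.78 ± 0.26 SE with the block, edgeR adjusted p = 0.207, and -0.80 ± 0.40 SE without it, 0.801). Of the remaining members 5 were lower in 2KR in 2 of the 3 pairs and 3 in 1 of the 3. How many of all genes were lower in each number of pairs was not counted, so these counts only describe the members. Over the 10 members 2 had a log2 fold change above 0, as 48.3% of genes did, and the median was -0.18, beside -0.004 over all genes tested.

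The other abundant genes differed in how far the data bound them. For lys-1 the log2 fold change of 2KR over WT was -0.04 with the block (95% interval -0.19 to 0.11), and for lys-8 -0.13 (-0.25 to -0.02, edgeR adjusted p = 0.274). lys-7 gave -0.25 (-0.51 to 0.00, edgeR adjusted p = 0.355), and lys-4 -0.30 (-0.54 to -0.06, edgeR adjusted p = 0.234). Without the block the intervals were wider, from -0.59 to 0.02 for lys-7 and from -0.83 to 0.17 for lys-4. WT replicate 2 held the highest lys-7 and the highest lys-4 of the 8 libraries. Without pair 2 the value was -0.05 for lys-7 and -0.16 for lys-4, while lys-7 passed without pair 1 (-0.44, edgeR adjusted p = 0.0239) and lys-4 without pair 3 (-0.49, 0.0467). For the scarce invertebrate-type genes the difference between the lines was not detectable at this depth: the ratio of 2KR to WT in summed counts was 1.43 for ilys-2 (12 and 8 counts, 95% exact interval 0.539 to 4.04) and 0.955 for ilys-3 (10 and 10 counts, 0.357 to 2.56).

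**Figure D3:**
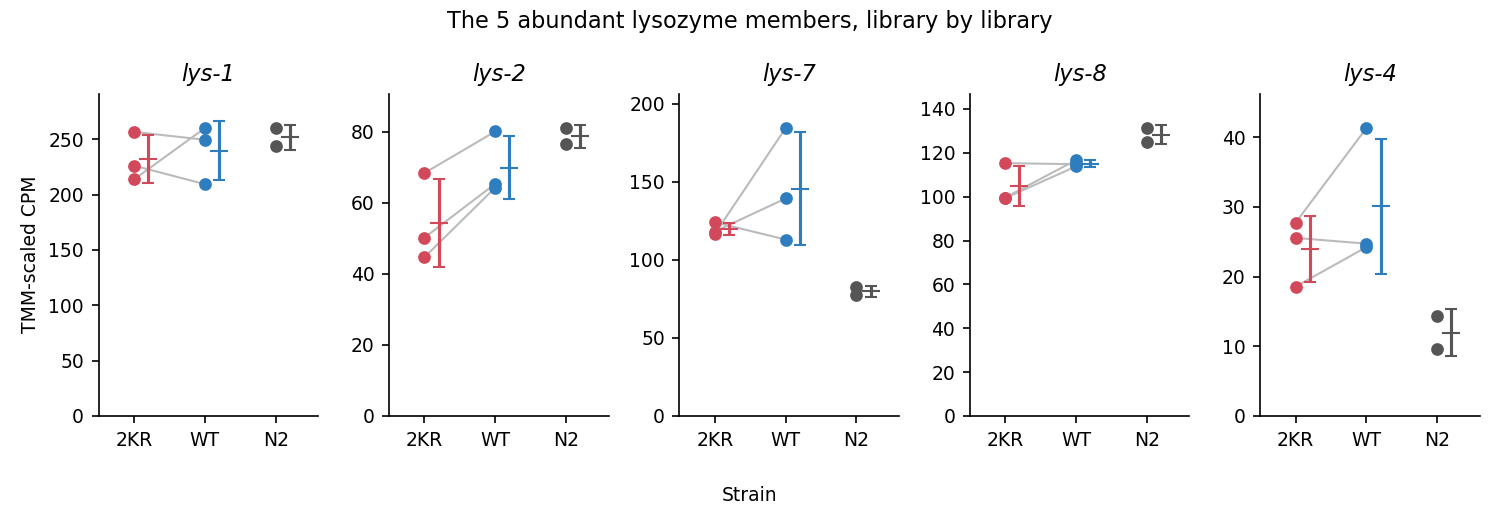
TMM-scaled CPM of the 5 abundant lysozyme genes in each library of 2KR, WT and N2, on linear axes from 0. Points are libraries, grey lines join 2KR and WT libraries with the same replicate number, and bars to the right of the points are the mean and SD (n = 3, 3 and 2). All 3 grey lines slope the same way for lys-2, the WT points of lys-7 spread from 113 to 184 CPM, and N2 is lowest for lys-7 and lys-4.

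The genes next to the lysozyme runs did not share the pattern of the runs throughout. Beside the invertebrate-type run, cdh-10, a cadherin gene 1087 bases before ilys-3, had log2 fold changes of 0.36 ± 0.31 SE in 2KR and 0.20 ± 0.31 SE in WT against N2, which did not pass. On the other side Y69A2AL.2, 10806 bases from the end of ilys-1, was lower in 2KR against N2 (-0.51 ± 0.12 SE, edgeR adjusted p = 0.0319) and did not pass in WT (-0.23 ± 0.12 SE). Beside lys-4 to lys-6, F58B3.4 had -0.15 ± 0.09 SE in 2KR and -0.16 ± 0.09 SE in WT, and Y24F12A.4 -0.31 ± 0.20 SE and -0.43 ± 0.20 SE, opposite in sign to the run and not passing. Near lys-1 to lys-3, the synaptic gene ric-4, 7590 bases away, was higher in 2KR against N2 (0.67 ± 0.18 SE, edgeR adjusted p = 0.0460). C07G3.8, 15503 bases from lys-7, was lower in both lines (-2.0 ± 0.29 SE in 2KR and -1.97 ± 0.29 SE in WT, edgeR adjusted p = 0.00352 and 0.00467), as was T25E4.2, 3769 bases from lys-8 (-5.11 ± 0.77 SE and -5.06 ± 0.77 SE, 0.00422 and 0.00542). Between the lines T25E4.2 was poorly measured (-0.05 ± 1.38 SE in 2KR against WT). Which libraries brought it over the count filter was not examined. The nearest tested genes on either side of lys-10, F35H10.2 and his-32, and the other neighbours of lys-7 and lys-8, gst-33 and cdc-14, did not pass in any comparison, nor did B0024.3 beside lys-3.

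**Figure D4:**
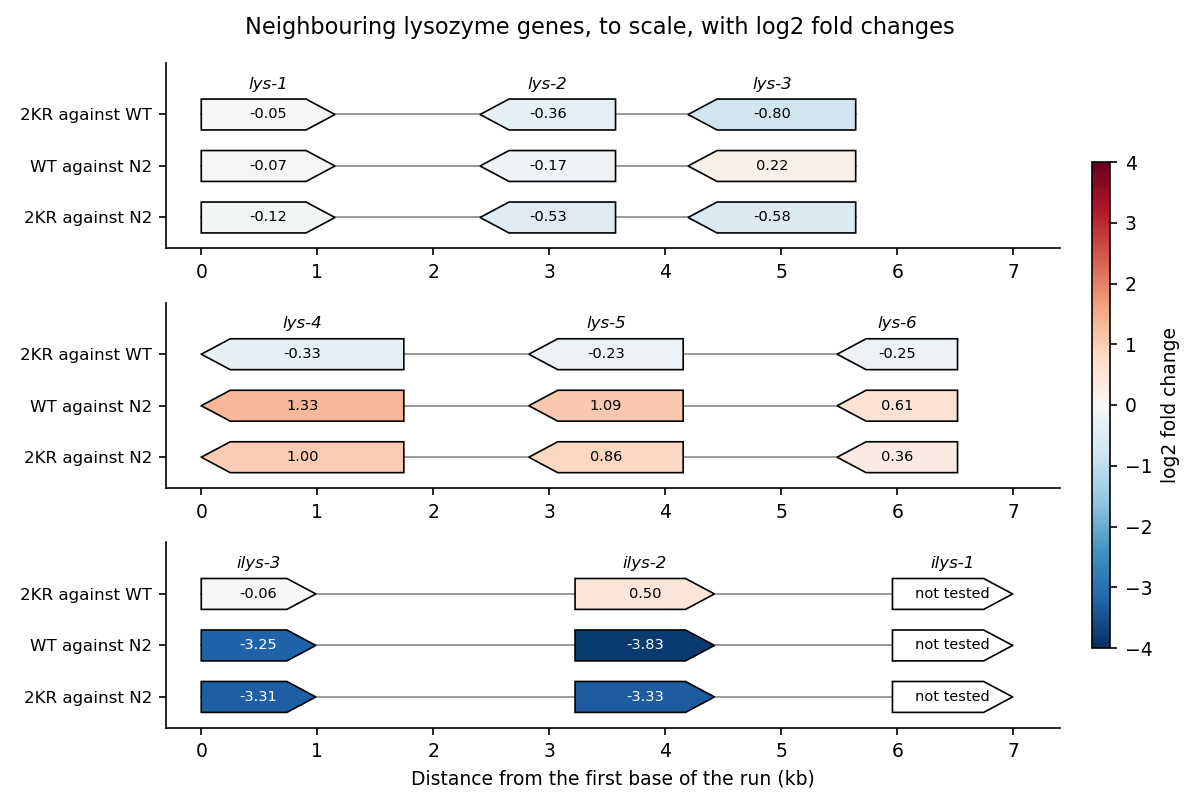
The 3 runs of neighbouring lysozyme genes drawn to scale, with distance from the first base of the run in kilobases and arrows pointing along the coding strand. Numbers and colours give the edgeR log2 fold change in each comparison, and ilys-1, with 0 counts in all 8 libraries, was not tested. Within the run of lys-4, lys-5 and lys-6 the sign is the same in each comparison for the 3 genes, and in the run of ilys-3 and ilys-2 both genes are blue in the rows against N2.

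Of the other 6 lysozyme genes named in the files, lys-9 and ilys-1 had 0 counts in all 8 libraries and ilys-6 at most 2. Those that were tested, lys-6, ilys-4 and ilys-5, did not pass in the edgeR fit of filtered counts in any comparison. At an unadjusted edgeR p under 0.05 were none, 1 and 2 of them in 2KR against WT, WT against N2 and 2KR against N2. Of all 14361 genes tested, 945, 2750 and 3588 had such a p in these comparisons. DESeq2 called 1 of the 3 in 2KR against N2. ilys-5, the most abundant lysozyme gene, had 513, 447 and 589 CPM in 2KR and 467, 508 and 506 CPM in WT, against 427 and 411 CPM in N2, so that both lines stood above N2 (log2 fold change 0.30 ± 0.10 SE in 2KR, edgeR adjusted p = 0.0933, and 0.24 ± 0.10 SE in WT, edgeR adjusted p = 0.223). Without the filter on low counts it passed in 2KR (edgeR adjusted p = 0.0185). ilys-4 was at 2.65, 2.16 and 2.74 CPM in 2KR, at 3.47, 2.59 and 2.95 CPM in WT and at 3.46 and 4.19 CPM in N2. It overlaps atic-1 on the other strand, and whether counting used strand is not stated in the sources used here, so reads of the pair may be mixed.

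Regulators that act on lysozyme genes differed between strains at single places. The p38 kinase gene pmk-1 was lower in both lines than in N2 (19.9 CPM in 2KR, 20.2 CPM in WT and 51.7 CPM in N2), with a log2 fold change of -1.38 ± 0.08 SE in 2KR and -1.35 ± 0.08 SE in WT (edgeR adjusted p = 4.77e-06 and 5.48e-06). It was the 1 of 7 genes of the p38 cascade that passed with edgeR in each, and DESeq2 called 2 in 2KR and 1 in WT. None of the 9 genes of the DBL-1 pathway and none of the 6 of the ERK cascade passed with edgeR or DESeq2 in any comparison. At an unadjusted edgeR p under 0.05 were 2 of each in 2KR against N2, and 1 DBL-1 pathway gene in 2KR against WT. Of all 14361 genes tested, 3588 and 945 had such a p in these comparisons. Among 8 gut transcription factor genes, daf-16 passed with edgeR in all 3 comparisons and no other did, while DESeq2 called 2 in 2KR against N2 and 1 in each of the others. Of the 10 PMK-1 pathway effectors, dod-24 was higher in both lines than in N2 (1.21 ± 0.18 SE in 2KR and 1.16 ± 0.18 SE in WT). The C-type lectin genes clec-85 (-0.79 ± 0.11 SE and -0.71 ± 0.11 SE) and clec-67 (-0.73 ± 0.19 SE and -1.04 ± 0.19 SE) were lower in both, and catp-3 in 2KR (-1.30 ± 0.23 SE). The median log2 fold change of these 10 was -0.23 in 2KR and -0.53 in WT against N2. None passed with edgeR in 2KR against WT, where 4 had an unadjusted edgeR p under 0.05 and DESeq2 called 3. Over all genes these numbers were 945 of 14361 tested and 95 called by DESeq2.

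Among genes that share the lysozymes' site of action, the gut lumen and lysosomes, few passed with edgeR. The 14 tested saposin-like genes, which encode pore-forming peptides, included spp-1, higher in 2KR against N2 (0.42 ± 0.08 SE, edgeR adjusted p = 0.0162), and spp-2, higher in WT against N2 (0.70 ± 0.11 SE, edgeR adjusted p = 0.00601), and the others did not pass with edgeR, while DESeq2 called 4 in 2KR against N2 and 1 in each of the others. Of 17 tested gut hydrolase genes, the cathepsin B-like protease genes cpr-5 (0.90 ± 0.07 SE) and cpr-3 (1.05 ± 0.17 SE) were higher in 2KR than in N2, cpr-5 was higher in 2KR than in WT (0.93 ± 0.06 SE), and the aspartyl protease gene asp-5 was lower in WT than in N2 (-0.29 ± 0.07 SE), by edgeR. DESeq2 called 4 of them in 2KR against N2 and 2 in each of the others. A list of 18 tested DAF-16-activated genes, not defined by site, had 7 lower and none higher in 2KR against N2, where 4% of genes were lower. The smallest p were those of lea-1 (-0.89 ± 0.06 SE) and sip-1 (-0.67 ± 0.06 SE). In WT against N2 3 were lower (lea-1, sip-1 and fat-5), where 2.21% of genes were. In 2KR against WT dod-3 was the 1 that passed (-1.16 ± 0.17 SE), and 16 of the 18 had a negative and 2 a positive log2 fold change. Of all genes tested 48.3% were above 0 there. The median of the list was -0.49 in 2KR and -0.10 in WT against N2, and -0.10 in 2KR against WT, beside 0.007, 0.007 and -0.004 over all genes tested. Of 10 intestine markers, 3 passed as higher in both lines than in N2, where 3.76% of genes did in 2KR and 1.86% in WT. They were pho-1 (0.81 ± 0.08 SE in 2KR and 0.34 ± 0.08 SE in WT), the intermediate filament gene ifb-2 (0.59 ± 0.07 SE and 0.40 ± 0.07 SE) and the brush border actin gene act-5 (0.43 ± 0.07 SE and 0.44 ± 0.07 SE). Over the 10 markers, 8 log2 fold changes were positive and 2 negative in 2KR against N2 (median 0.15). In WT against N2 6 were positive and 4 negative (median 0.04). The part of these markers in the lysozyme values was not tested.

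The genes most like the members in pattern were sought over the 8 libraries among genes whose average log2 CPM was 2 or more, by Pearson r of log2 CPM, for the 4 members with the smallest p. Libraries share their strain and replicate number, so r is a description, and since these genes were picked for following a member over the same libraries, their differences between strains are descriptions too and carry no test. The chitinase gene cht-1 was nearest to ilys-3 (r = 0.975), at 14.8, 15 and 13.6 CPM in 2KR, 13.6, 13.9 and 13.9 CPM in WT and 40.0 and 26.5 CPM in N2. Next came the F-box gene fbxc-51 (r = 0.970), with a mean of 3.84 CPM in 2KR, 4.38 CPM in WT and 11.3 CPM in N2. For ilys-2 they were F32B4.4 (r = 0.990) and ttll-5 (r = 0.981), whose means differed far less (F32B4.4 at 56.7 CPM in 2KR, 56.2 CPM in WT and 63.9 CPM in N2). The genes most like lys-7 were C14C6.2 (r = 0.952), at 12.8 CPM in 2KR, 13.6 CPM in WT and 8.22 CPM in N2 on average, and tsen-34 (r = 0.949). Nearest to lys-4 were the neuropeptide-like gene nlp-20 (r = 0.985), at 8.07 CPM in 2KR, 8.79 CPM in WT and 6.14 CPM in N2 on average, and the kinesin gene klp-11 (r = 0.973).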

How the data were processed

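The deposited file of each library holds raw counts per gene and a signal column of scaled fragment values made by the authors, per the file headers. Tests used the counts, and the deposited signal was only checked against them. Per the submitters' processing notes, Trimmomatic 0.32, TopHat2 2.1.0 and DESeq2 1.14.1 were used. The sources used here do not give the genome build, annotation, counting program or strand setting, so Ensembl 115 positions on WBcel235 were joined by gene identifier.

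The counts were tested with edgeR 4.0.16 (TMM scaling, filterByExpr by group, quasi-likelihood test; limma 3.58.1, R 4.3.3), with DESeq2 1.42.0 as an alternative, and plotted with matplotlib 3.10.9. N2, WT and 2KR were fitted together (8 libraries), and p-values were Benjamini-Hochberg adjusted over all genes tested. On simulated counts with 200 changed genes, the 3 comparisons recovered 99 to 100% of changes of 1 and 2 on the log2 scale, with 6 to 11 false calls. The changed genes were drawn from those with average log2 CPM above 2, and spread was set at its trend with level. The recovery therefore does not apply to the scarce members lys-3, lys-5, lys-10, ilys-2 and ilys-3. For the other members it assumes spread at the trend, and theirs can be larger. In the data lys-4, at 1.00 ± 0.27 SE in 2KR against N2, did not pass (edgeR adjusted p = 0.0539). Smaller changes and the fit with the block were not simulated. Intervals are 95%, of the fit or exact binomial on summed counts. Those of the fit take in the spread between libraries. The exact intervals cover counting error only, and molecules were not tagged.

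The 3 libraries of a further line, with 4 substitutions, were left out because their counts do not go with the gene names (r of log2(CPM + 1) across genes 0.372 to 0.388 with other libraries, against 0.994 to 0.999 among the 8). The labels call libraries of a group biological repeats, without naming cultures, so p-values measure the spread between these libraries. Deviations from group means were correlated in 2KR and WT libraries of the same number (0.475, 0.577 and 0.625 over 8946 genes), and the correlations were negative otherwise (-0.415 to -0.098). Deviations within a group cancel out, so positive values at the same number push the others down. The negative sign is therefore not separate support for the pairing. N2 shares 2 numbers with each line, too few for that check. The members and lists were chosen with earlier results of these data known, and lists come from general knowledge. Named were the members, other lysozyme genes, daf-16, rol-6, nearest tested neighbours, genes of like pattern, and up to 4 called genes per list by smallest p.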

Additional observations from a re-analysis of the deposited data

How the results depend on the processing

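The direction of every member called in the fit of 8 libraries held under all alternatives run, and over 335 member values from these alternatives the sign turned in 12, none of them called, while 19 calls were lost and 19 gained. RLE scaling changed no member's call. With every gene of at least 1 count tested, the number of genes called was 99 in 2KR against WT (35 in the fit of 8 libraries) and 911 in WT against N2 (584), and 6 members passed in 2KR against N2 (3 in the fit of 8 libraries). DESeq2 called 95 genes in 2KR against WT, 677 in WT against N2 and 1207 in 2KR against N2, with 5 members in 2KR against N2. With the 2 groups alone 22 genes passed in 2KR against WT. With the replicate block by title number, genes called were 286 in 2KR against WT (185 higher, 101 lower, against 11 and 24 without it), 1794 in WT against N2 and 2695 in 2KR against N2, and members called were 1 and, in 2KR against N2, 7. The N2 files carry other run marks in their headers than these numbers (the second N2 library has the mark of the third libraries), and with the replicate block by run mark the counts were 319, 1455 and 2457 genes, with 1 member in 2KR against WT and 6 in 2KR against N2. With only 2 shared numbers, the block in comparisons with N2 rests on the numbers alone. Among the members tested in 2KR against WT, the block changed no call but that of lys-2. By title number it added lys-2 in WT against N2 (-0.32, edgeR adjusted p = 0.0123), for 5 members, and lys-2, lys-4, lys-7 and lys-10 in 2KR against N2. By run mark 4 members passed in WT against N2, with lys-2 at -0.09 (0.535), and lys-10 in 2KR against N2 was not called (0.108). Leaving out 1 library gave 7 to 124 genes in 2KR against WT (14, 124 and 16 without WT replicates 1, 2 and 3, and 7, 22 and 11 without 2KR replicates 1, 2 and 3) with 0 members throughout. It gave 101 to 464 in WT against N2 with 0 to 4 members and 162 to 986 in 2KR against N2 with 0 to 3 members. Without N2 replicate 1 these were 101 and 162 genes, without N2 replicate 2 163 and 255, without WT replicate 2 or 3 370 and 330 in WT against N2, and without 2KR replicate 2 641 in 2KR against N2. Depth limits lys-3, lys-5, lys-10, ilys-2 and ilys-3, where 1 count is worth 0.0327 to 0.0467 CPM. The cause of these changes was not tested.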

Other observations

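In the 3 files of the line with 4 substitutions, whose counts do not go with their names, the row named lys-1 held 1, 0 and 0 counts and the row named lys-10 held 1106, 1020 and 879, against 5217 to 7224 and 1 to 19 in the 8 libraries compared. They are not read as levels of these genes.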
